A study of Mus musculus with 8 samples.

Results

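The integrin chains of lymphocytes described here were the α-chain genes *Itga1*, *Itga4*, *Itga6*, *Itgae*, *Itgal*, *Itgam* and *Itgav* and the β-chain genes *Itgb1*, *Itgb2* and *Itgb7*. They were chosen by name, though with earlier results of these data known, and made up 10 genes in 11 entries of a table of 47493. All 10 genes, though not the second of the entries named *Itgam*, reached a mean of 1 FPKM (fragments divided by transcript length and library depth) over the libraries and could be tested. RNA was measured in endogenous CD8+ T cells of 4 tumor-bearing mice. Cells labelled with an IL-18Rα antibody and held by magnetic beads (the IL-18Rαhi-enriched fraction) were compared with those that passed the column (the flow-through, used as control). Each mouse gave 1 library of each fraction, which made 4 enriched and 4 flow-through libraries. Libraries of equal number were taken as 1 mouse, which the labels do not say in words.

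Both fractions shared the same mice and the same treatments. Female C57BL/6 mice 6 to 8 weeks old were inoculated with 200000 B16-F10 cells, a mouse melanoma line. On day 3 they received 300 mg/kg cyclophosphamide, which depletes lymphocytes. Pmel-1 cells, 2000000 per mouse, followed on day 5. These are CD8+ T cells that carry a transgenic receptor for a melanocyte antigen and the Thy1.1 allele. Human IL-2, 10000 IU, was given daily for 3 days from then on. Anti-CD4 antibody (clone GK1.5), 200 μg weekly for 3 weeks, began on day 10. Spleen and inguinal lymph nodes were taken on day 25, CD8+ cells were purified with beads and the Thy1.1+ transferred cells were removed. Both fractions were separated on beads and not by a sort, so each can hold other cells.

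Integrins are cell-surface receptors made of 1 α and 1 β chain, and neither chain reaches the surface in quantity without a partner. In T cells the β2 chain (*Itgb2*) pairs with αL (*Itgal*) to form LFA-1, which binds ICAM proteins and holds the T cell to its target, and with αM (*Itgam*) to form Mac-1 of myeloid and NK cells. The β1 chain (*Itgb1*) pairs with α4 (*Itga4*) to form VLA-4, a receptor for VCAM-1 and fibronectin, and with α1, α6 and αV. The β7 chain (*Itgb7*) pairs with α4, giving the gut-homing receptor for MAdCAM-1, and with αE (*Itgae*, CD103), which binds E-cadherin on epithelium. CD49d, the protein product of *Itga4*, is also a phenotype marker, since low CD49d among memory-type CD8+ T cells of the mouse is commonly used to mark cells that have not met their foreign antigen.

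The promoters of *Itga4* and *Itgb1* are shown because these partner chains gave the only lower call and the largest increase among the members. Each is the 250 bases before the transcription start in RefSeq (GRCm38.p6, the assembly also called mm10), read 5′ to 3′ on the + strand of the gene. The *Itga4* window lies at chr2:79255176-79255425 and the *Itgb1* window at chr8:128685404-128685653.
Itga4: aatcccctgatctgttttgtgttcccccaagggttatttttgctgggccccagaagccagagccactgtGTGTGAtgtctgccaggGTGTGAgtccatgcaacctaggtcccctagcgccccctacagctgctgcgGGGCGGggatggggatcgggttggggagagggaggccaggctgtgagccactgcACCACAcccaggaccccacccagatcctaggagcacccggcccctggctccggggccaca
Itgb1: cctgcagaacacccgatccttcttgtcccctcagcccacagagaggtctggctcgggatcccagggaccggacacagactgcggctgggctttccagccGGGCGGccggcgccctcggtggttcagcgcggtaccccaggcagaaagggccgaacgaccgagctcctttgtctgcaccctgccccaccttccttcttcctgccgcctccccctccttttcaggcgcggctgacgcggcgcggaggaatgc
Capitals mark matches on either strand to short motifs, namely the GC box GGGCGG, the ETS core GGAAGT, the RUNX words TGTGGT and TGCGGT, the T-box half-site TCACAC and the TATA word TATAAA. The *Itga4* window held 1 GC box, 1 RUNX word and 2 T-box half-sites (written GTGTGA, the reverse complement), and the *Itgb1* window held 1 GC box. No matches overlapped in either window. Of 32851 promoter windows of the same length, 32.7% held a GC box, 19.7% the ETS core, 18.6% a RUNX word, 12.3% the T-box half-site and 12.4% the TATA word. The GC content was 64.0% for *Itga4* and 68.0% for *Itgb1*, against a median of 52.4% over all windows. Windows were also read for *Itga1*, *Itgam*, *Itgav* and *Itgb7*, which makes 6 of the 10 members. *Itgb7*, the other β partner of α4, had a GC content of 56.0% and no match to any of the motifs. *Itgav* held 2 ETS cores, *Itga1* held 1 ETS core, and *Itgam* held 1 GC box. A match is a stretch of letters and was not tested as a binding site. *Itga6*, *Itgae*, *Itgal* and *Itgb2* had no entry.

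The selection was visible in the RNA of its target. *Il18r1*, which encodes IL-18Rα, was at 22.2, 37.2, 27.7 and 35.3 FPKM in flow-through libraries 1 to 4 and at 110, 107, 110 and 116 FPKM in the enriched libraries (log2 change 1.85 ± 0.15 SE, limma adjusted p = 0.000291). The 8 markers of CD8+ T-cell identity, *Cd8a* and the CD3 chains among them, summed to 1163 FPKM in flow-through library 1, to 1869 to 2220 in the other flow-through libraries and to 2221 to 2384 in the enriched libraries (1 of 8 higher). Flow-through library 1 thus stood apart from the rest, and the fold changes of the members, with some of the other results, are also given without it. Erythroid progenitor markers, which were present in all libraries, summed to 2294 FPKM in that library, 850 to 1249 in the other flow-through libraries and 141 to 568 in the enriched libraries, with 6 of 9 lower at an adjusted p under 0.05. Monocyte and macrophage markers summed to 147 to 504 FPKM in the flow-through and 468 to 1091 in the enriched libraries (5 of 8 higher). Dendritic-cell markers went from 12.9 to 21.8 up to 28.7 to 61.1 FPKM (5 of 6 higher), and NK-cell markers from 13.04 to 24.4 up to 35.3 to 84.9 FPKM (4 of 5 tested higher). CD4 T-cell markers summed to at most 15.2 and 49.4 FPKM in the 2 fractions (3 of 3 higher). Markers of γδ T cells summed to 26.7 to 59.1 and 42.7 to 86.7 FPKM (2 of 4 higher), and B-cell markers to 24.4 to 62.9 and 40.4 to 81.9 FPKM (1 of 5 tested higher). The NK-cell list held *Ncr1* and *Klrb1c*, the CD4 T-cell list *Cd40lg* and the γδ list *Blk*. The study reported these genes as raised in the same enriched fraction, as innate-like T-cell markers or NK-cell receptors. Whether CD8+ T cells or other cells carried their RNA was not tested. Megakaryocyte and platelet markers were at 12.3 to 16.3 and 9.11 to 12.9 FPKM (1 of 4 tested lower), and mast-cell and basophil markers at 61.0 to 172 and 130 to 294 FPKM (1 of 6 higher and 1 lower). Granulocyte markers (595 to 3416 and 618 to 3881 FPKM) and globins with *Alas2* (204 to 1055 and 117 to 1146 FPKM) gave no call among 8 and 5 genes, although with the mouse as a block 2 granulocyte genes were higher and 1 lower, and 2 globin-list genes were lower. None of these markers was at 0 in every library, and the part of these cells in the integrin results was not tested except where a value is given below. In such bulk samples fewer cells of a type and less RNA per cell cannot be told apart.

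In the enriched fraction 7 of the 10 members were higher, 1 was lower and 2 gave no call when limma's adjusted p was held under 0.05. Of all 12166 genes tested, 14.1% were higher and 13.7% lower. The median log2 fold change was 0.86 over the members and -0.02 over all genes. The members that rose were the 3 β chains and *Itgal*, *Itgae*, *Itgam* and *Itga1*, and the one that fell was *Itga4*. *Itga1* averaged 0.729 FPKM in the flow-through and reached the mean of 1 FPKM through its enriched libraries. With a minimum mean of 5 FPKM, 8 members were tested, of which 6 were higher and 1 lower. Of all 9329 genes tested there, 1338 were higher and 1374 lower. All 4 enriched libraries lay above all 4 flow-through libraries for 8 members and below them for 1, against 16.4% and 15.9% of all genes tested. When each library was divided by its level of the CD8+ T-cell identity genes (T-cell scaling), 6 members were higher and 2 lower. That scaling moved the all-gene median to -0.35 (log2) and changed the calls over all genes from 1720 higher and 1664 lower to 508 and 1100. Without flow-through library 1 there were 8 higher and 2 lower members, against 1711 higher and 1588 lower of all 12166 genes.

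**Figure D1:**
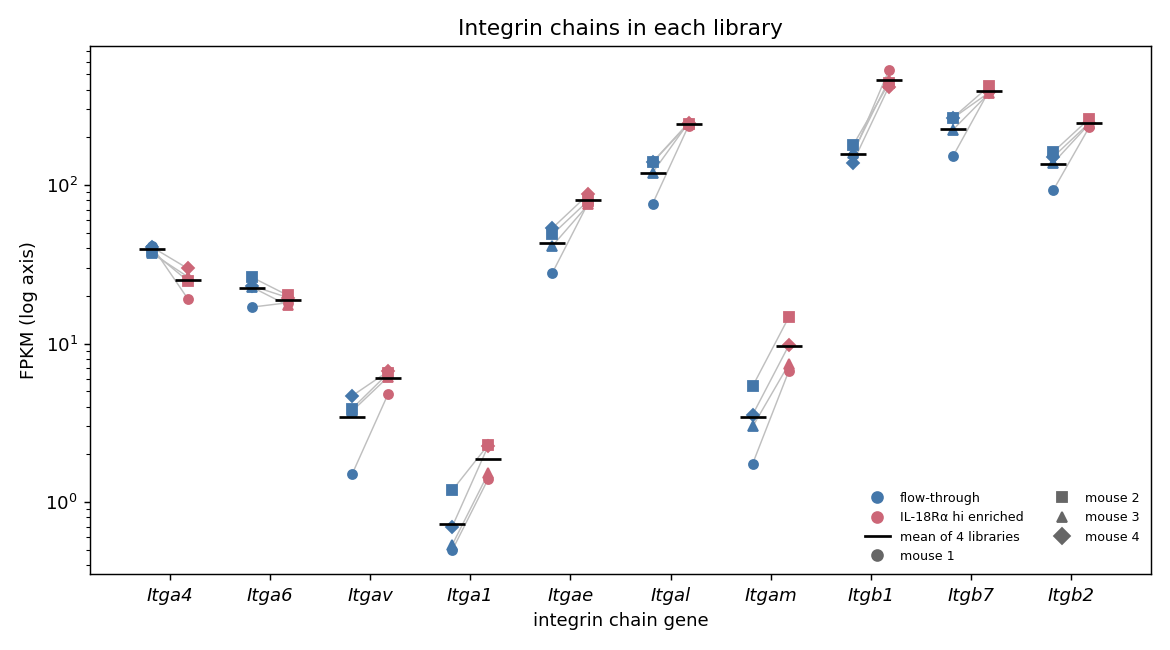
FPKM of the 10 integrin chains in each of 8 libraries on a log axis, with a line joining the fractions of 1 mouse and a bar at the mean of 4 libraries. *Itgb1*, the other β chains, *Itgal* and *Itgae* lay higher in all enriched libraries, and *Itga4* lay lower in all of them.

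Among the β chains the largest difference was that of *Itgb1* (ENSMUSG00000025809, chr8:128685654-128733200 in mm10, + strand), which encodes CD29. Its level was 155, 178, 160 and 139 FPKM in flow-through libraries 1 to 4 and 532, 439, 461 and 419 FPKM in enriched libraries 1 to 4. The lowest enriched library was thus more than 2 times the highest flow-through library. The mean went from 158 ± 16.02 to 463 ± 49.6 FPKM (SD, n = 4 each), a ratio of 2.93, with a log2 change of 1.54 ± 0.10 (SE, 95% interval 1.31 to 1.78, limma adjusted p = 0.0002). By its p-value *Itgb1* was number 11 of all genes tested. In the 4 mice the log2 difference ran from 1.30 to 1.77. Leaving out flow-through library 1 gave the same 1.54, and T-cell scaling gave 1.18.

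*Itgb2* (ENSMUSG00000000290, chromosome 10) encodes CD18, the β chain shared by the leukocyte integrins. It was at 92.7, 162, 138 and 150 FPKM in the flow-through libraries, against 232, 262, 243 and 246 FPKM in the enriched libraries. Flow-through library 1 was the lowest of all 8, and the fractions did not overlap. The mean rose from 136 ± 30.2 to 246 ± 12.4 FPKM (SD, n = 4 each), with a log2 change of 0.88 ± 0.16 (SE, limma adjusted p = 0.00619). The log2 fold change was 0.71 without flow-through library 1 and 0.52 with T-cell scaling.

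*Itgb7* (ENSMUSG00000001281, chromosome 15) was at 152, 266, 224 and 265 FPKM in the flow-through libraries, against 394, 421, 380 and 384 FPKM in the enriched libraries. Again flow-through library 1 was the lowest and the fractions stood apart. The mean rose from 227 ± 53.4 to 395 ± 18.6 FPKM (SD, n = 4 each), with a log2 change of 0.83 ± 0.17 (SE, limma adjusted p = 0.0094). The value was 0.65 without flow-through library 1. With T-cell scaling it was 0.47 and only just past the threshold (limma adjusted p = 0.0498).

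*Itgal* (ENSMUSG00000030830, chr7:127296260-127335138) encodes CD11a, the α chain of LFA-1, and was the most abundant α chain in both fractions. Its flow-through values were 76.0, 139, 120 and 140 FPKM, while the enriched libraries lay close together at 237, 243, 248 and 247 FPKM. The mean rose from 119 ± 29.8 to 244 ± 4.86 FPKM (SD, n = 4 each), with a log2 change of 1.07 ± 0.18 (SE, limma adjusted p = 0.00457). It was 0.88 without flow-through library 1 and 0.71 with T-cell scaling.

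*Itgae* (ENSMUSG00000005947, chr11:73090583-73147446), the αE chain that marks many epithelial T cells, was at 27.9, 48.8, 41.3 and 53.5 FPKM in the flow-through, against 77.6, 79.9, 75.4 and 87.5 FPKM in the enriched libraries. No library of either fraction reached into the range of the other. The mean rose from 42.9 ± 11.2 to 80.1 ± 5.25 FPKM (SD, n = 4 each), with a log2 change of 0.92 ± 0.18 (SE, limma adjusted p = 0.0083). It was 0.74 without flow-through library 1 and 0.57 with T-cell scaling.

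*Itga4* (ENSMUSG00000027009, chr2:79255426-79333123), whose promoter is printed above, went the other way. It was at 41.3, 38.3, 37.2 and 40.7 FPKM in the flow-through libraries, against 19.2, 24.9, 26.4 and 29.8 FPKM in the enriched libraries. Every enriched library lay below every flow-through library, and the transcript was still detected at 19.2 FPKM or more in all of them. The mean fell from 39.4 ± 1.96 to 25.0 ± 4.41 FPKM (SD, n = 4 each), 1.57-fold lower. On the log2 scale the change was -0.65 ± 0.12 (SE, 95% interval -0.93 to -0.36, limma adjusted p = 0.00758). It was lower in 4 of 4 mice, by log2 differences of -1.07 to -0.44. Without flow-through library 1 the log2 fold change was -0.62 and with T-cell scaling -1.002. Erythroid progenitors also carry CD49d, and their markers were lower in the enriched libraries too. In the flow-through, library 1 had both the most *Itga4* (41.3 FPKM) and the highest erythroid sum (2294 FPKM), while in the enriched fraction library 1 had the least *Itga4* (19.2 FPKM) and the highest erythroid sum (568 FPKM). Their part in the difference was not tested. The RNA was measured here and the CD49d protein was not. By flow cytometry in a separate experiment, the study gave a CD49d-negative phenotype for IL-18Rαhi endogenous CD8+ T cells.

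*Itga6* (ENSMUSG00000027111, chr2:71745616-71858416) encodes α6, a laminin receptor chain. Its values were 17.0, 26.2, 22.7 and 23.1 FPKM in the flow-through, against 18.1, 20.1, 17.4 and 19.5 FPKM in the enriched libraries. The fractions overlapped through flow-through library 1, which was the lowest of all 8. The log2 fold change was -0.22 with a 95% interval of -0.51 to 0.07 (limma adjusted p = 0.224), and 3 of 4 mice were lower. Without flow-through library 1 it was called lower (-0.34, limma adjusted p = 0.0208), as it was with T-cell scaling (-0.57, limma adjusted p = 0.0445).

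*Itgav* (ENSMUSG00000027087, chr2:83724397-83806916) encodes αV, which binds vitronectin and fibronectin and takes part in the activation of TGF-β. It was at 1.49, 3.88, 3.74 and 4.67 FPKM in the flow-through, against 4.803, 6.48, 6.15 and 6.67 FPKM in the enriched libraries. The fractions stood apart by a narrow margin. The log2 fold change of 0.72 (95% interval 0.16 to 1.27) did not pass the threshold (limma adjusted p = 0.0589), although 4 of 4 mice were higher. With the mouse as a block in the fit it did pass (limma adjusted p = 0.00736), and it also did without flow-through library 1 (0.46, limma adjusted p = 0.0318) or flow-through library 4 (0.86, limma adjusted p = 0.0423).

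*Itgam* (ENSMUSG00000030786, chr7:128062640-128118491), the αM chain of Mac-1, was at 1.75, 5.39, 3.00 and 3.56 FPKM in the flow-through, against 6.69, 14.7, 7.39 and 9.72 FPKM in the enriched libraries. Mouse 2 was highest and mouse 1 lowest in both fractions. The mean rose from 3.42 ± 1.52 to 9.61 ± 3.60 FPKM (SD, n = 4 each), with a log2 change of 1.27 ± 0.29 (SE, limma adjusted p = 0.0150). It was 1.06 without flow-through library 1 and 0.98 with T-cell scaling. The summed monocyte and macrophage markers put the 4 libraries of each fraction in the same order as *Itgam*, with 147, 504, 216 and 303 FPKM in the flow-through, against 468, 1091, 527 and 775 FPKM in the enriched libraries. Granulocyte and mast-cell markers put them in that order too. The part of these cells in the difference was not tested. A second entry with the name *Itgam* (ENSMUSG00000108596, chr7:128062683-128128160) overlaps the first, and how Cufflinks shared fragments between the pair is not known. It stayed at or under 0.0836 FPKM in the flow-through, lay between 0.103 and 0.628 FPKM in the enriched libraries, and was too low to be tested.

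*Itga1* (ENSMUSG00000042284, chr13:114953096-115101964) encodes CD49a, a collagen-binding chain found on many tissue-resident T cells and on some NK cells. It was the lowest of the members, at 0.496, 1.18, 0.536 and 0.699 FPKM in the flow-through, against 1.40, 2.30, 1.52 and 2.26 FPKM in the enriched libraries. All enriched libraries were above all flow-through libraries, with the nearest at 1.40 against 1.18 FPKM. The mean rose from 0.729 ± 0.316 to 1.87 ± 0.476 FPKM (SD, n = 4 each), with a log2 change of 0.73 ± 0.18 (SE, limma adjusted p = 0.0179). The log2 change was 0.67 without flow-through library 1. With T-cell scaling it was 0.55 and no longer called (limma adjusted p = 0.0602), and the call was also lost without flow-through library 3 (0.68) or without enriched library 2 (0.66) or 4 (0.67). The NK-cell markers given above moved in the same direction, and their part was not tested.

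**Figure D2:**
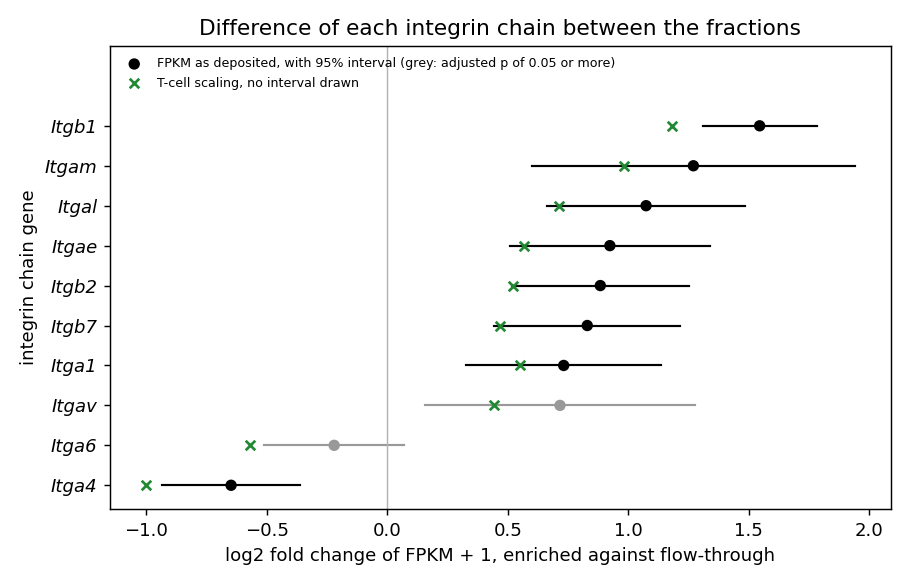
Log2 fold change of FPKM + 1 between the enriched and the flow-through libraries for each member, with its 95% interval as a line; grey marks those not past the threshold, and crosses the values under T-cell scaling. *Itga4* and *Itga6* lay below 0 and the other 8 members above it under both scalings.

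Since FPKM is a level per length of transcript, levels could be ordered between the chains within a fraction. In the flow-through the means ran from *Itgb7* (227 FPKM) through *Itgb1* (158), *Itgb2* (136) and *Itgal* (119), each overlapping the next in range, to *Itgae* (42.9) and *Itga4* (39.4), which also overlapped. *Itga6* followed at 22.3 FPKM, then *Itgav* (3.44) and *Itgam* (3.42), whose ranges overlapped, and last *Itga1* (0.729). In the enriched fraction *Itgb1* (463 FPKM) stood first with *Itgb7* (395), and these overlapped in range. *Itgb2* (246) and *Itgal* (244) overlapped as well, *Itgae* (80.1) stood clear, *Itga4* (25.0) and *Itga6* (18.8) overlapped, and *Itgam* (9.61), *Itgav* (6.03) and *Itga1* (1.87) did not overlap with their neighbors.

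The makeup of the chains was also described within each library. The 7 α chains together summed to 166 to 266 FPKM in the flow-through and to 365 to 402 FPKM in the enriched libraries, and the 3 β chains to 400.1 to 605 and to 1049 to 1158 FPKM. *Itga4* made up 24.9%, 14.6%, 16.3% and 15.3% of the α-chain sum in flow-through libraries 1 to 4 and 5.26%, 6.35%, 6.91% and 7.39% in the enriched libraries. The share of *Itga6* was 9.71 ± 0.688% in the flow-through, against 4.87 ± 0.244% in the enriched fraction (SD, n = 4 each). *Itgal* made up 50.9 ± 3.42% and 63.3 ± 1.84%, and *Itgae* 18.4 ± 1.37% and 20.8 ± 0.887%. Of the β-chain sum, *Itgb1* made up 31.0 ± 5.73% in the flow-through, against 41.9 ± 3.08% in the enriched fraction. *Itgb7* was at 43.2 ± 4.003% and 35.8 ± 1.57%, and *Itgb2* at 25.9 ± 1.82% and 22.3 ± 1.60%. Shares of 1 sum cannot move apart from each other, and they were described without a test.

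**Figure D3:**
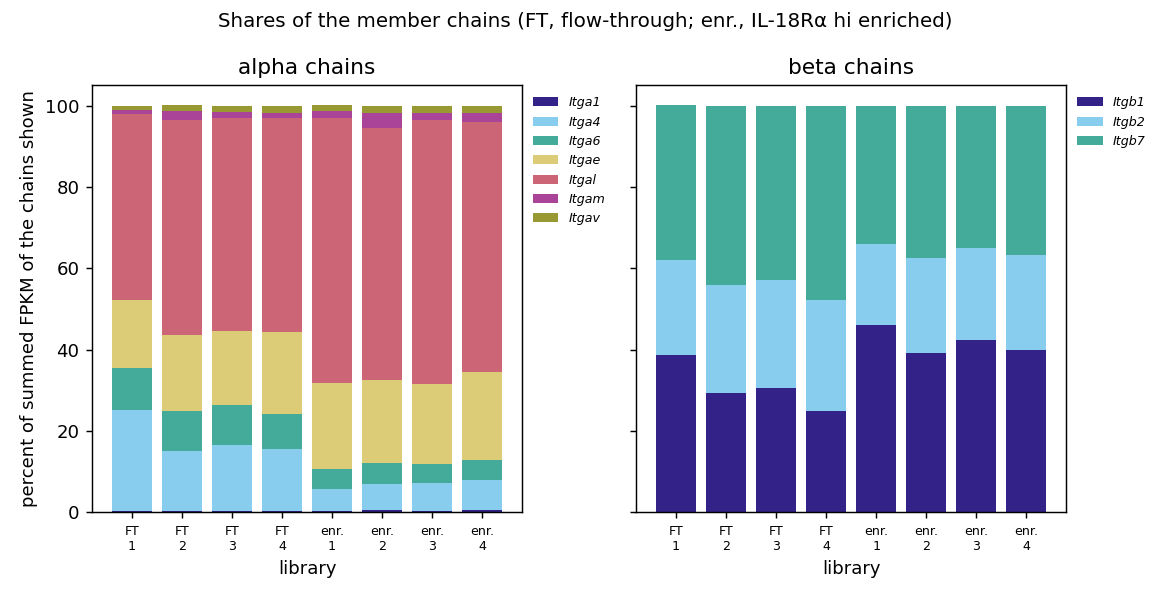
Percent of the summed FPKM of the 7 α chains (left) and of the 3 β chains (right) held by each gene in each library. The *Itga4* segment is 14.6% or more in each flow-through library and 7.39% or less in each enriched library.

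Ratios between partner chains within a library do not depend on how libraries are scaled. The *Itga4* to *Itgb1* ratio, for the chains of VLA-4, was 0.266, 0.216, 0.232 and 0.294 in the flow-through libraries, against 0.0360, 0.0566, 0.0573 and 0.0711 in the enriched libraries. It was 4.66-fold lower in the enriched fraction (log2 difference -2.22) and lower in 4 of 4 mice. The ratio of *Itga4* to *Itgb7*, for the gut-homing receptor, was 0.271, 0.144, 0.166 and 0.154 in the flow-through, against 0.0487, 0.0590, 0.0695 and 0.0775 in the enriched libraries, 2.83-fold lower (log2 difference -1.50). Without flow-through library 1 that difference was -1.30. The RNA of α4 was thus lower relative to both of its β partners in every enriched library than in any flow-through library. The *Itga6* to *Itgb1* ratio was 0.141 ± 0.0238 and 0.0410 ± 0.00617 (SD, n = 4 each), 3.44-fold lower. *Itgb7* stood to *Itgb1* as 1.45 ± 0.380 in the flow-through, against 0.860 ± 0.0979 in the enriched fraction, 1.64-fold lower. The nearest libraries were flow-through library 1 at 0.982 and enriched library 2 at 0.959.

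The LFA-1 chains both rose, and their ratio was higher in the enriched fraction, in 4 of 4 mice. *Itgal* to *Itgb2* was at 0.820, 0.860, 0.869 and 0.928 in the flow-through, against 1.02, 0.928, 1.02 and 1.00 in the enriched libraries, a log2 difference of 0.19. The fractions met at 0.928 when rounded but did not overlap. For *Itgae* to *Itgb7* the ratios were 0.188 ± 0.00925 and 0.203 ± 0.0169 (log2 difference 0.11, exact permutation p = 0.114). *Itgam* to *Itgb2* was at 0.0244 ± 0.00629 and 0.0386 ± 0.0124 (0.64, exact permutation p = 0.0857). Both ratios were higher in 4 of 4 mice, by 0.05 to 0.17 and by 0.48 to 0.74 on the log2 scale. For *Itgav* to *Itgb1* the log2 difference was -0.64 (exact permutation p = 0.2) and for *Itga1* to *Itgb1* -0.14 (exact permutation p = 0.714). The former was lower in 4 of 4 mice (-1.08 to -0.09) and the latter in 3 of 4. The sign of the last turned when flow-through library 2 (0.065) or enriched library 1 (0.057) was left out. Without flow-through library 1 the *Itgav* to *Itgb1* difference was -0.99. Its adjusted p was then 0.0514, against 0.225 with all libraries (exact permutation test).

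Each of the 9 ratios was compared by an exact two-sided permutation test over the 70 arrangements of the libraries. The 5 ratios whose fractions did not overlap gave the smallest p that this design allows, 0.0286, and an adjusted p of 0.0514 over the 9 ratios, so that 0 of 9 passed after adjustment. With 1 FPKM added to both chains, 6 of 9 passed (adjusted p = 0.0429, exact permutation test), the further one being *Itga1* to *Itgb1* (log2 difference -0.81), whose α chain is close to 1 FPKM itself. The 5 ratios kept their p of 0.0286 (exact permutation test), and their adjusted p fell only because this further ratio reached the same p. By mouse, the smallest p an exact sign-flip test can give is 0.125, and no ratio could pass.

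**Figure D4:**
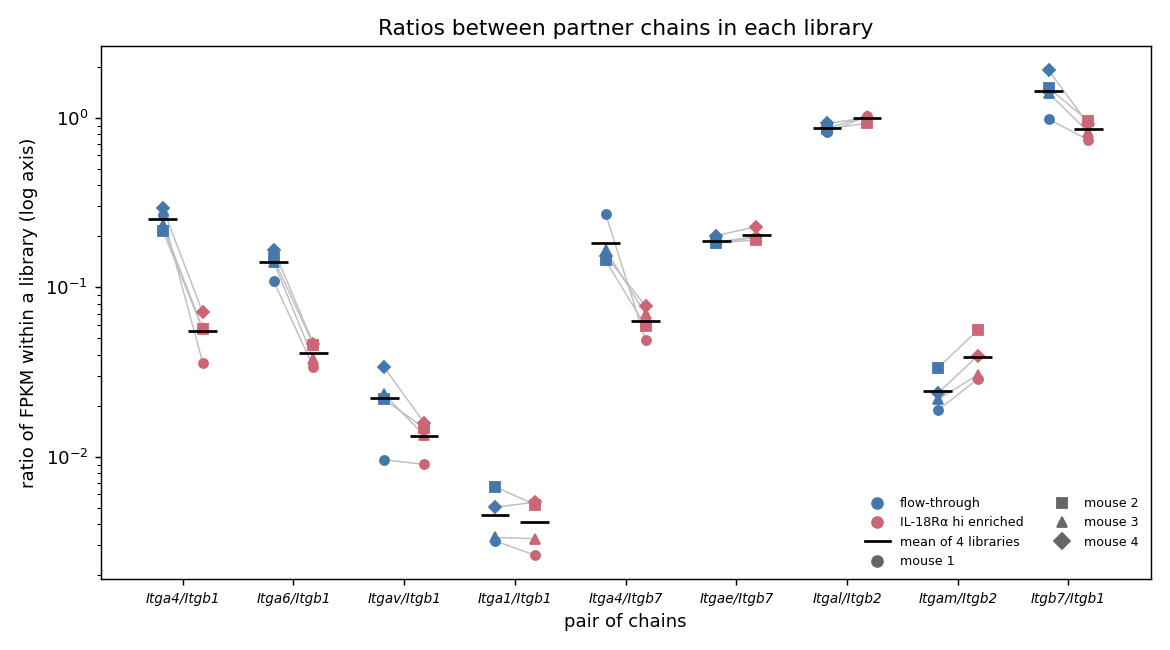
Ratio of the FPKM of paired chains within each library on a log axis, with a line joining the fractions of 1 mouse and a bar at the mean of 4 libraries. The ratios of *Itga4* and *Itga6* to *Itgb1* lie lower in all enriched libraries, whereas those of *Itgae* to *Itgb7* overlap.

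Of 16 further integrin chains, 8 reached the level needed for a test, of which 3 were higher, 1 was lower and 4 gave no call (median log2 fold change 0.55). Of all genes, 14.1% were higher and 13.7% lower, so that 1 lower chain in 8 is near the background. These counts depend on the filter. *Itga2*, *Itga3*, *Itgad* and *Itgb5* averaged under 1 FPKM in the flow-through and passed through their enriched libraries. *Itga10* did not pass, at 1.06 to 1.41 FPKM in the flow-through and 0.531 to 0.722 FPKM in the enriched libraries. With no filter on low values, 16 chains were tested, with 5 higher and 2 lower (median log2 fold change 0.23). Over all 22789 genes of that fit, 1669 were higher and 1283 lower. *Itga2*, which encodes the collagen-binding CD49b of NK cells and some T cells, rose from 0.468, 0.668, 0.548 and 0.593 FPKM to 2.40, 2.79, 2.64 and 3.30 FPKM (log2 change 1.27 ± 0.12 SE, limma adjusted p = 0.000544). *Itgax*, which encodes CD11c of dendritic cells and of some activated CD8+ T cells, rose from 1.93, 5.56, 2.78 and 5.25 FPKM to 9.17, 15.7, 12.3 and 18.6 FPKM (1.65, SE 0.30, limma adjusted p = 0.00617). In both genes the fractions stood apart, and *Itgax* was lowest in mouse 1. The dendritic-cell and NK-cell marker sums given above were also higher in every enriched library than in any flow-through library. Those of monocytes and macrophages overlapped between the fractions (147 to 504 against 468 to 1091 FPKM). In each mouse, though, the enriched library had the higher sum, and 5 of 8 genes were called higher. The part of these cells was not tested. *Itgb3*, the β chain of the platelet integrin and a partner of αV, rose from 5.43 ± 1.53 to 10.4 ± 2.28 FPKM (SD, n = 4 each; 0.83, SE 0.22, limma adjusted p = 0.0227). That call was lost with T-cell scaling (0.52) and without flow-through library 3 (0.83) or enriched library 2 (0.77), 3 (0.84) or 4 (0.75).

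*Itga5*, the α chain of the classical fibronectin receptor with β1, fell, as *Itga4* did. It was at 19.7, 10.3, 11.9 and 11.3 FPKM in the flow-through, against 5.67, 5.94, 6.24 and 6.06 FPKM in the enriched libraries. Flow-through library 1 was far above the others, and the enriched libraries lay close together below all of them. On the log2 scale the change was -0.99 ± 0.18 (SE, limma adjusted p = 0.0057), and -0.80 without flow-through library 1. The erythroid progenitor markers were also highest in flow-through library 1 and lower in the enriched libraries, and their part in the *Itga5* difference was not tested. *Itga2b*, the α chain of the platelet integrin, was at 8.51 ± 2.32 and 6.88 ± 2.84 FPKM (SD, n = 4 each), with a log2 fold change of -0.32 and a 95% interval of -0.996 to 0.36 (limma adjusted p = 0.448, or 0.0436 with the mouse as a block). *Itga3* (0.44, 95% interval 0.07 to 0.81, limma adjusted p = 0.0721) and *Itgb5* (0.65, 0.09 to 1.22, limma adjusted p = 0.0817) were not past the threshold, nor was *Itgad* (0.41, -0.11 to 0.94, limma adjusted p = 0.210). *Itgb5* and *Itgad* were called with the mouse as a block (limma adjusted p = 0.00449 and 0.0381).

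**Figure D5:**
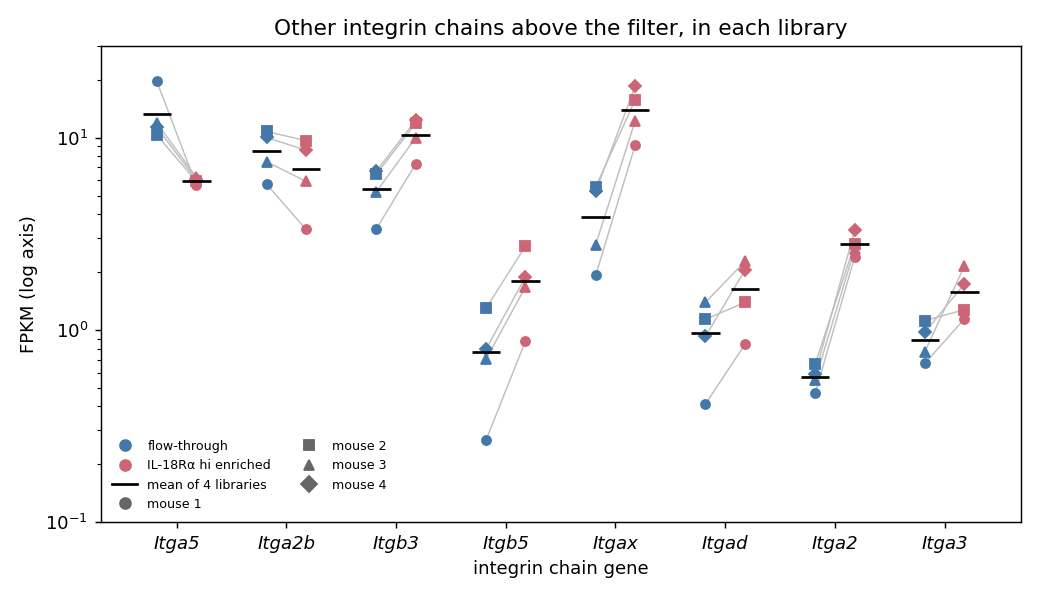
FPKM of the 8 further integrin chains that could be tested, in each library on a log axis, with a line joining the fractions of 1 mouse and a bar at the mean of 4 libraries. *Itga5* was lower and *Itga2* and *Itgax* were higher in all enriched libraries, and *Itga2b* overlapped between the fractions.

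Integrin ligands are mostly made by other cells, and 7 of the 14 listed could be tested, of which 2 were higher, 1 was lower and 4 gave no call. Beside the 14.1% and 13.7% of all genes, 1 lower ligand in 7 is at the background. *Fn1*, which encodes fibronectin, the matrix ligand of α4β1 and α5β1, rose from 4.93, 11.8, 6.35 and 8.01 FPKM to 19.3, 36.8, 20.6 and 28.8 FPKM (log2 change 1.65 ± 0.27 SE, limma adjusted p = 0.00417). *Spp1* (osteopontin, a ligand of αV and α4 integrins) rose from 0.837 ± 0.257 to 2.34 ± 0.565 FPKM (SD, n = 4 each; 0.85, SE 0.17, limma adjusted p = 0.00859). It passed the filter through its enriched libraries. With no filter on low values, 14 ligands were tested, with 2 higher and 1 lower, against 1669 and 1283 of all 22789 genes. *Icam2*, a ligand of LFA-1, fell from 62.0 ± 7.68 to 47.9 ± 2.60 FPKM (SD, n = 4 each; -0.36, SE 0.10, limma adjusted p = 0.0308), and lost that call when any library except flow-through library 1 was left out (-0.39 to -0.30). *Fn1* had the same order of libraries in each fraction as the monocyte and macrophage, granulocyte and mast-cell markers, and their part was not tested. With the mouse as a block, 5 of 7 ligands were higher and 2 lower, while 2705 of all 12166 genes were higher and 2763 lower.

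Proteins that promote or restrain the switch of integrins to the binding state, talin, kindlin-3 and the Rap1 pathway among them, formed a list of 20 genes. All of them could be tested. The list held inhibitors as well as activators, so its counts do not give a direction of integrin activation. Of the 20, 9 were higher and 0 were lower, against 14.1% and 13.7% of all genes, with a median log2 fold change of 0.34. Talin (*Tln1*, 0.33, limma adjusted p = 0.0515) and kindlin-3 (*Fermt3*, -0.12, limma adjusted p = 0.228) gave no call. *Flna*, which encodes filamin A, an actin crosslinker that binds β tails and competes with talin, rose from 125, 168, 164 and 194 FPKM to 350.4, 339, 335 and 334 FPKM (log2 change 1.08 ± 0.12 SE, limma adjusted p = 0.00125). The enriched libraries were nearly level. *Lcp2* (SLP-76, an adaptor of the T-cell receptor) rose from 63.5 ± 15.3 to 109 ± 1.17 FPKM (SD, n = 4 each; 0.80, limma adjusted p = 0.0106). *Skap1*, an adaptor that links the receptor to Rap1, rose from 120 ± 31.0 to 177 ± 12.6 FPKM (SD, n = 4 each; 0.60, limma adjusted p = 0.0425), and lost that call with no filter on low values (limma adjusted p = 0.0795) and without flow-through library 3 (0.60) or any 1 enriched library (0.56 to 0.65). Without flow-through library 1 the log2 change was 0.95 for *Flna*, 0.62 for *Lcp2* and 0.41 for *Skap1*. Under T-cell scaling 1 of the 20 was higher, *Flna*, and 0 were lower, with a median of -0.02 against -0.35 over all genes.

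The list of adaptors and kinases that act at integrin adhesions held 18 genes, all tested, with 7 higher, 2 lower and a median log2 fold change of 0.27. Against 14.1% and 13.7% of all genes, the lower count is near the background, and it was 0 with no filter on low values and without flow-through library 3 or any 1 enriched library. *Zyx* (zyxin, an actin-binding adhesion protein) rose from 103, 162, 126 and 174 FPKM to 308, 305, 275 and 312 FPKM (log2 change 1.11 ± 0.16 SE, limma adjusted p = 0.00243). *Cd82*, a tetraspanin that associates with integrins, was nearly constant within each fraction, at 175, 178, 183 and 178 FPKM and at 355, 340, 335 and 343 FPKM (0.94, SE 0.06, limma adjusted p = 0.0002). *Fyn*, a Src-family kinase, rose from 88.7 ± 17.7 to 135 ± 4.98 FPKM (SD, n = 4 each; 0.62, limma adjusted p = 0.0144). Without flow-through library 1 the log2 change was 0.97 for *Zyx*, 0.93 for *Cd82* and 0.47 for *Fyn*. The genes that fell were *Actn1* (α-actinin, 37.4, 66.3, 59.1 and 75.1 FPKM against 34.5, 36.1, 36.3 and 37.2 FPKM) and *Ptk2* (focal adhesion kinase, 3.48, 1.92, 2.82 and 1.82 FPKM against 1.27, 1.17, 1.51 and 1.23 FPKM). Their log2 fold changes were -0.66 (limma adjusted p = 0.0326) and -0.59 (limma adjusted p = 0.0318), and they lost the call in 7 and 6 of the 8 fits that left out 1 library, with values there of -0.68 to -0.54 and -0.63 to -0.46. *Actn1* kept it only without flow-through library 1 (-0.87) and *Ptk2* without flow-through library 2 (-0.67) or 4 (-0.68). With no filter on low values neither was called (limma adjusted p = 0.0631 and 0.0609). Under T-cell scaling *Zyx* (0.75) was the 1 gene of the list called higher and *Actn1* (-1.02) the 1 called lower, and neither *Cd82* (0.57) nor *Fyn* (0.26) was called.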

How the data were processed

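RNA-seq was performed on 8 libraries, with groups and replicate numbers from GEO's labels. The labels state that both fractions came from each of 4 mice, and equal numbers were taken as 1 mouse, which they do not say in words. The authors deposited FPKM values. They had mapped 150-base paired-end reads of stranded poly(A) libraries to mm10 with TopHat and had estimated levels with Cufflinks 2.1.1 with its multi-read and fragment-bias corrections on. The annotation release was not given in the sources used here. The strand was not used by Cufflinks at its default setting, so antisense and overlapping genes are uncertain. Cufflinks does not return whole reads. The value of 1 fragment in low genes placed the depth at 14500000 to 17300000 fragments per library, and no counting interval was given. Coordinates came from GENCODE release M21.

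The fractions were compared on log2(FPKM + 1) in limma (version 3.58.1, under R 4.3.3), with a variance trend and no mouse block, over the 12166 genes averaging 1 FPKM or more. Benjamini-Hochberg adjustment was over all of them (threshold 0.05). Fold changes are on the log2(FPKM + 1) scale and understate low genes. The fit was tested on simulated data. Ratios of chains were compared with exact permutation tests (scipy 1.17.1). Deviations from the fraction means correlated between the libraries of equal number (r = 0.66, 0.589, 0.308 and 0.471 for numbers 1 to 4). Libraries of unequal number were not compared in this way, so the values do not show that equal numbers are 1 mouse. Equal numbers were used as 1 mouse for the differences by mouse and the replicate block, while the main fit ignores the pairing. T-cell scaling divides each library by the geometric mean of 8 CD8+ T-cell identity genes. Named genes were the members, all other integrin chains that could be tested, the 3 largest calls per direction of each other integrin list, and *Il18r1*. *Itga10* was named as a chain that the filter left out, *Tln1* and *Fermt3* as examples given for their list, and some marker genes for theirs. The members and lists were chosen with earlier results of these data known.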

Additional observations from a re-analysis of the deposited data

Results flagged for a closer look

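The spread within a fraction was examined in 38 groups of 4 libraries, and 1 library stood apart. The ratio of *Itgae* to *Itgb7* was 0.2021 in flow-through library 4, against 0.1832 to 0.1846 in the other flow-through libraries. Chance gives about 1 such flag in 20 groups.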

How the results depend on the processing

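The calls of *Itgb1*, *Itgb2*, *Itgb7*, *Itgal*, *Itgae*, *Itgam* and *Itga4* held under all 14 alternatives. These were another pseudocount (0.1), no filter on low values, a minimum of 5 FPKM, the replicate block, T-cell scaling, median-ratio scaling and leaving out each of 8 libraries. The count of higher members ranged from 6 to 8 over them, and the fits without 1 library gave the same range. The count of lower members was 2 with T-cell scaling and 1 to 2 without 1 library. With the mouse as a replicate block 8 members were higher and 1 lower, *Itgav* being added, and no other member changed its call. The number of chain ratios past the adjusted threshold was 0, also in each fit without 1 library. It was 6 with a pseudocount of 1 in both chains, where 1 more ratio at the smallest p lowered the adjusted p of the rest. By mouse it could only be 0, since the smallest p of the sign-flip test is 0.125. Of the ratio differences, that of *Itga1* to *Itgb1* ran from -0.29 to 0.065 when 1 library was left out, turning sign without flow-through library 2 (0.065) and without enriched library 1 (0.057). The cause was not tested. The counts of all genes called higher and lower (1720 and 1664) were 2705 and 2763 with the replicate block and 508 and 1100 with T-cell scaling. Without flow-through library 3 they were 1155 and 940, and without enriched libraries 2 and 4 they were 1124 and 956 and 1129 and 973. FPKM carries no exact depth, so the precision of the low chains (*Itga1*, *Itgam* and *Itgav*) rests on the 4 libraries of each fraction.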
